A study of Mus musculus with 6 samples.

Results

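The 9 genes described here build contacts between neurons and between motor neurons and muscle, and their mRNA was followed through a Qk knockdown (KD). They are the neurexins Nrxn2 and Nrxn3, the neuroligins Nlgn1, Nlgn2 and Nlgn3, the neurexin-binding scaffold Cask, and the neuromuscular organisers Agrn, Lrp4 and Dag1. They were chosen by symbol, as synaptic adhesion and neuromuscular junction genes of which some carry Quaking-regulated exons, and all 9 members were found among the 23038 genes measured. The cells were NSC-34, a mouse motor neuron model that is a hybrid of spinal cord motor neurons and neuroblastoma. 3 mRNA-seq libraries came from cells given control siRNA (siNC) and 3 from cells given siRNA against Qk (siQk). Qk encodes Quaking, a family of RNA-binding proteins that act on splicing, stability and translation. The cells were grown in DMEM with 10% FCS and collected 3 days after transfection. The study used 3 different siRNAs against Qk, and which library received which is not stated. The libraries came from independent cultures of 1 hybrid line with no muscle cells in the dish, so the muscle side of the junction was not modelled.

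Neurexins are presynaptic membrane proteins that reach across the cleft to bind neuroligins on the postsynaptic cell. Cask is a membrane-associated guanylate kinase that binds the inner tail of neurexins. At the neuromuscular junction, motor neurons release agrin, which binds Lrp4 on muscle, activates the kinase MuSK and gathers acetylcholine receptors. Dystroglycan, the product of Dag1, is the surface receptor that binds agrin, laminins and neurexins through its sugar chains. In these families a small alternative exon often decides the partner: agrin made by neurons carries inserts at the sites called y and z, of which the z inserts give strong receptor clustering, and inserts at splice site 4 of neurexins and at the A and B sites of neuroligins tune binding.

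The short optional exons of these genes show what a value per gene adds together. Such exons are printed here because the counts cover all isoforms, and how often each exon was used was not analysed. The sequences come from GENCODE release M21 transcripts (GRCm38), 5′ to 3′ on the strand of the gene. In Agrn, the y exon lies at chr4:156169546-156169557, and the tandem z exons at chr4:156168546-156168569 and chr4:156167777-156167809, all on the minus strand. Each of the 3 is in 1 of the 4 coding transcripts that span it.
Agrn y exon: aaatcccgcaag
Agrn z exon of 24 bases: cgagctgaccaatgagatcccagc
Agrn z exon of 33 bases: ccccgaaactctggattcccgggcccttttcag

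In Cask, neighbouring optional exons of 69 and 36 bases lie at chrX:13552373-13552441 and chrX:13550947-13550982 on the minus strand, in 2 and 3 of the 5 coding transcripts that span them. Quaking proteins bind a core of ACTAAC or ACTAAT in the DNA alphabet, and capitals mark the match found on the strand of the gene. The 69-base exon holds ACTAAC from position 52, counted from its 5′ end. Of 1013 internal coding exons of the same length in the annotation, 6 (0.592%) hold either form. All optional exons found for these genes were searched, some of them not printed, and this was the only match. By exon length the share ran from 0% to 2.02%. The 0.592% is thus not how often a search of all these exons would find a match. A match in the letters is a description and not a binding site. None of the other exons printed here holds either form, which says nothing about the introns around them.
Cask exon of 69 bases: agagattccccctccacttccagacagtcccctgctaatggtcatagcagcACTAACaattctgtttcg
Cask exon of 36 bases: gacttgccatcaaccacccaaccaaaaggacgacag

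The neurexin exon at splice site 4 is shown for Nrxn3, where it is 90 bases long (chr12:90199147-90199236, plus strand), and the neuroligin inserts show how far family members resemble one another. The inserts of Nlgn1 (chr3:25920178-25920237, minus strand) and Nlgn3 (chrX:101307075-101307134, plus strand) share 43 of 60 bases (71.7%), whereas a second Nlgn3 insert of the same length (chrX:101303072-101303131) shares 16 of 60 (26.7%) with that of Nlgn1. The insert of Nlgn2 (chr11:69830563-69830613, minus strand) is 51 bases long.
Nrxn3 exon at splice site 4: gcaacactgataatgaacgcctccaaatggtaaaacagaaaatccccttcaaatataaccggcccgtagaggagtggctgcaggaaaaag
Nlgn1 insert: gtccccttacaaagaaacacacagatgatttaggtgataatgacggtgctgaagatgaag
Nlgn2 insert: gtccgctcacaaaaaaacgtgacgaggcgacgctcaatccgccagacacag
Nlgn3 insert, first position: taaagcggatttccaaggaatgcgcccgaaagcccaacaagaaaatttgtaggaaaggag
Nlgn3 insert, later position: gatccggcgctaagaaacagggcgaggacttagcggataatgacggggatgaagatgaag

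Each library held 43000503 to 53565950 counts. Qk, the gene the siRNA targets, had 9.67, 8.18 and 14.9 RPKM (reads per kilobase of exon, scaled to the library total) in siNC replicates 1 to 3 and 1.39, 1.71 and 1.10 RPKM in siQk replicates 1 to 3. Qk fell by 3.00 on the log2 scale (SE 0.34; adjusted p = 0.0149, edgeR quasi-likelihood test), leaving 12.8% of the siNC mean, so all 6 libraries matched their labels. Without siNC replicate 1 its adjusted p was 0.125 and its log2 fold change -3.09. siQk replicate 2 stood apart on the first principal component (41.2% of the variance) and siNC replicate 3 on the second (28.9%), and each tested member is also given without both of them. Of 16 motor neuron and neuron markers, 6 (Mnx1, Lhx3, Chat, Slc5a7, Stmn2 and Rbfox3) stayed under 1 RPKM in all libraries. The other 10 were present, among them the neuronal Prph at 421 to 949 RPKM and Tubb3 at 142 to 349 RPKM, and the motor neuron markers Isl1 at 4.75 to 9.63 RPKM and Slc18a3 at 1.56 to 2.29 RPKM. Of the muscle markers, Myh3 had 26.6 to 37.2 RPKM and Myod1 at most 0.0118 RPKM.

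Levels of the 9 genes spanned from abundant to undetected. In siNC, Dag1 was highest with a mean of 20.3 RPKM, followed by Agrn, Nrxn2, Cask, Nlgn2, Nlgn3 and Lrp4. Nrxn3 and Nlgn1 were near or at 0. Neighbours in this order did not all differ beyond the spread of the siNC libraries. Dag1 exceeded Agrn in 3 of the 6 libraries, and the siNC ranges of Dag1 and Agrn, of Agrn and Nrxn2, and of Nrxn2 and Cask overlapped. Cask lay above Nlgn2 in 6 of 6 libraries without overlap, and Nlgn2 was 6.94-fold above Nlgn3. The ranges of Nlgn3 and Lrp4 were separate in siNC and overlapped in siQk.

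**Figure D1:**
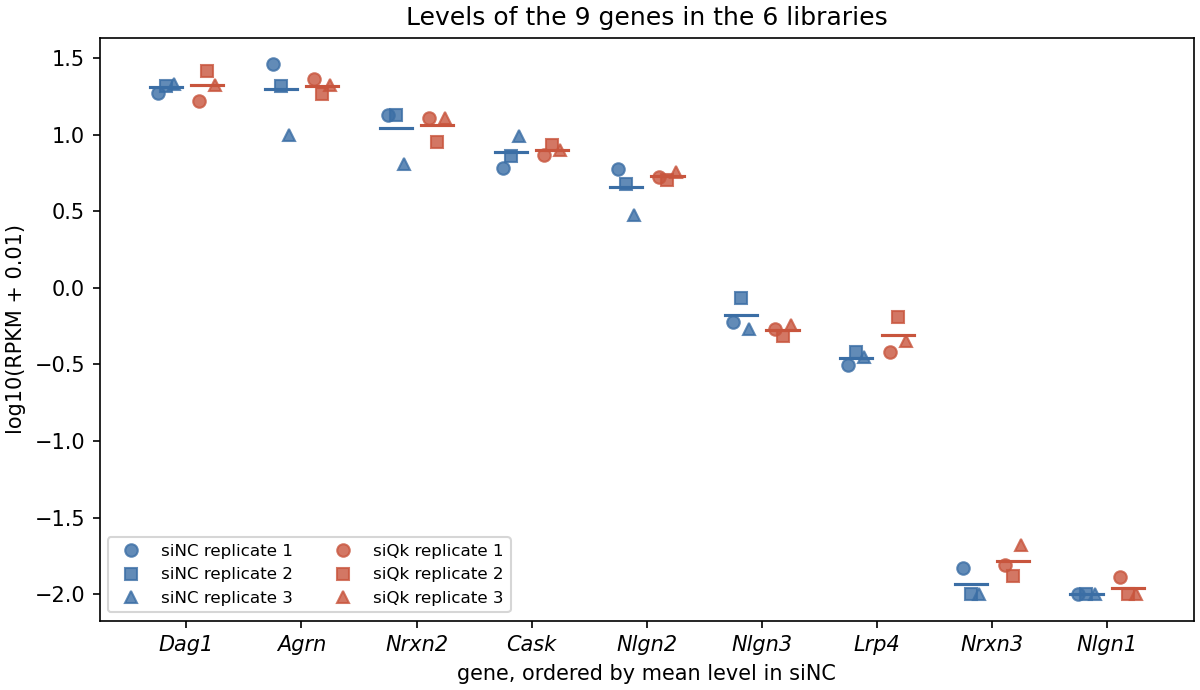
Level of each of the 9 genes in the 6 libraries, as log10(RPKM + 0.01), with genes ordered by their mean in siNC and bars at the mean of each group of 3. The siNC and siQk points overlap for every gene, and siNC replicate 3 is the lowest library for Agrn, Nrxn2 and Nlgn2.

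None of the 7 members abundant enough to test (mean log2 of the scaled count, CPM, above 0) was called changed in siQk at p under 0.01 and an adjusted p under 0.1 (edgeR quasi-likelihood test). Over all 12665 genes tested, 1 gene was called (0.0079%), and that gene was Qk. At an unadjusted p under 0.05 there were 0 members, beside 366 of all genes tested (2.89%), and the edgeR exact test, DESeq2 and limma voom also called 0 members. The siNC and siQk libraries overlapped in RPKM for all 9 members, of which 7 were tested. Over all genes tested they did not overlap for 1119 (8.84%), and at that share 0 of 7 members does not stand out. Of the tested members, 6 had a higher fitted level in siQk and 1 a lower one, and their median log2 fold change was 0.04, beside 0.003 over all genes tested. The 95% intervals of the fold changes were narrowest for Dag1 (-0.39 to 0.46) and Cask (-0.45 to 0.48) and widest for Agrn (-0.62 to 0.75), Nlgn3 (-1.03 to 0.33) and Lrp4 (-0.17 to 1.12). In bulk RNA, fewer cells of a type and less RNA per cell cannot be told apart.

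**Figure D2:**
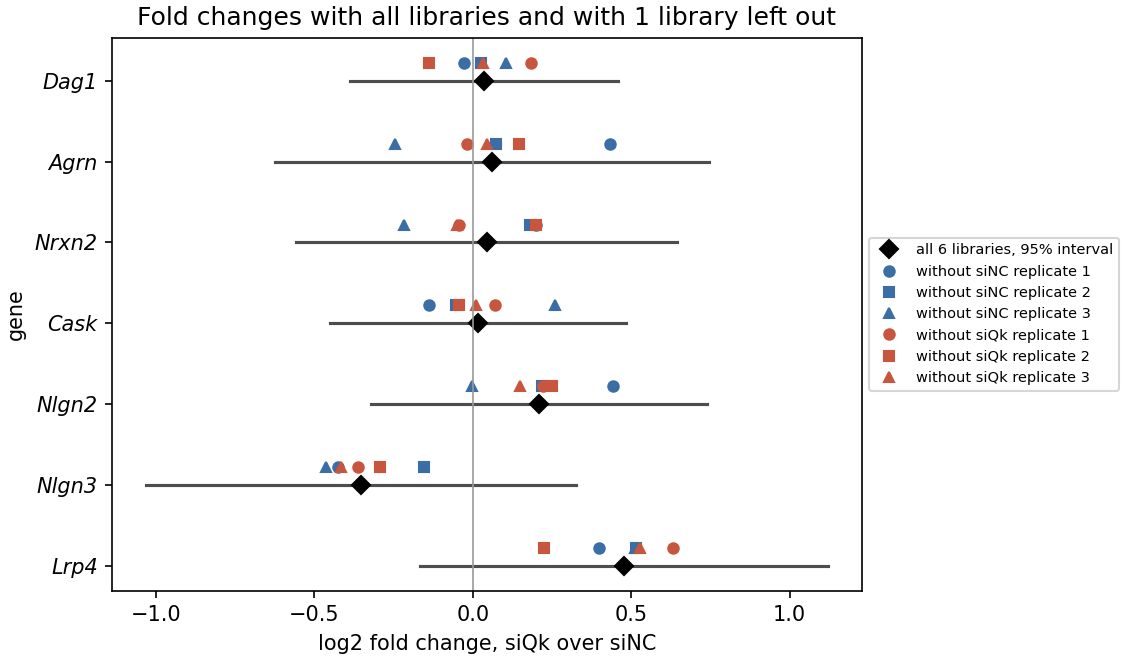
log2 fold change of siQk over siNC for the 7 members tested, from the edgeR quasi-likelihood fit with all 6 libraries (diamonds, lines for the 95% interval) and with 1 library left out (small symbols). Every interval crosses 0, and Agrn moves from -0.25 without siNC replicate 3 to 0.43 without siNC replicate 1.

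Of the neurexins, Nrxn2 (Entrez 18190, GRCm38 chr19:6418731-6544169, plus strand) carried nearly all the signal. It had 13.3, 13.4 and 6.41 RPKM in siNC and 12.8, 8.88 and 12.8 RPKM in siQk, from 2865 to 7057 counts. One siNC library and 1 siQk library were low, and the groups overlapped. The means were 11.1 ± 4.02 and 11.5 ± 2.27 RPKM (SD, n = 3 each), with a log2 fold change of 0.04 (SE 0.37, 95% interval -0.56 to 0.65; adjusted p = 0.9996, edgeR). The fold change was -0.22 without siNC replicate 3, where the 3 siQk libraries lay below the 2 siNC libraries left beside 22.9% of all genes tested that did not overlap, and -0.06 with siQk replicate 2 left out as well. Exons of Slc22a12 on the other strand overlap those of Nrxn2 over 682 bases and cannot be told apart without strand, though Slc22a12 itself had at most 8 counts in any library.

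Nrxn3 (Entrez 18191, GRCm38 chr12:88722876-90334935, plus strand) was barely detected. It had 3, 0 and 0 counts in the siNC libraries and 3, 2 and 6 counts in the siQk libraries, or at most 0.0109 RPKM. All but 1 of these counts lie at or under the 3 counts that a count of 0 allows, which came to 0.00469 to 0.00584 RPKM by library, so no fold is given. NSC-34 cells held Nrxn2 mRNA at about 11 RPKM and next to none of Nrxn3, in both groups.

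Neuroligins, the postsynaptic partners, were led by Nlgn2, the form known from inhibitory synapses. Nlgn2 (Entrez 216856, GRCm38 chr11:69823122-69837784, minus strand) had 5.94, 4.75 and 3.00 RPKM in siNC and 5.26, 5.04 and 5.73 RPKM in siQk. The siNC libraries were spread over a wide range that enclosed 3 of 3 siQk libraries. Means were 4.56 ± 1.48 and 5.34 ± 0.349 RPKM (SD, n = 3 each), with a log2 fold change of 0.21 (SE 0.27, 95% interval -0.32 to 0.74; adjusted p = 0.9996, edgeR). Without siNC replicate 3 the fold change was -0.001, without siNC replicate 1 it was 0.44, and without both siNC replicate 3 and siQk replicate 2 it was 0.05. Without siNC replicate 1 the 3 siQk libraries lay above the siNC libraries left, and 21.2% of all genes tested did not overlap in that setting.

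Nlgn3 (Entrez 245537, GRCm38 chrX:101299168-101325963, plus strand), found at both excitatory and inhibitory synapses, was the only member with a negative fold change over all 6 libraries. It had 0.590, 0.850 and 0.531 RPKM in siNC and 0.527, 0.477 and 0.561 RPKM in siQk, from 90 to 159 counts. siNC replicate 2 stood above the rest, and siNC replicate 3 fell inside the siQk range. The log2 fold change was -0.35 (SE 0.19, 95% interval -1.03 to 0.33; adjusted p = 0.9996, edgeR), and it was -0.16 without siNC replicate 2. Leaving out siNC replicate 3 gave -0.46, and leaving out siQk replicate 2 too gave -0.40. Without siNC replicate 3 the siQk libraries lay below both siNC libraries left, and in that setting the groups did not overlap for 22.9% of all genes tested. A second gene model on the same strand, Gm21986, overlaps 3823 exonic bases of Nlgn3, so its counts are uncertain.

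Nlgn1 (Entrez 192167, GRCm38 chr3:25426215-26332460, minus strand), the form known from excitatory synapses, had 1 count in siQk replicate 1 and 0 counts in each of the other 5 libraries. A count of 0 allows a level of up to 0.00773 to 0.00963 RPKM by library, and no difference was detectable at this depth.

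The balance of the 3 neuroligins within a library does not depend on library scaling. Nlgn2 made up 91.0%, 84.8% and 84.96% of summed neuroligin RPKM in siNC and 90.8%, 91.4% and 91.1% in siQk. The siQk libraries lay within 1 percentage point of one another, while siNC replicates 2 and 3 lay lower and siNC replicate 1 lay among the siQk libraries. The mean share was 86.9% ± 3.51 in siNC and 91.1% ± 0.258 in siQk (SD, n = 3 each), a difference of 4.18 points (two-sided exact permutation p = 0.2, where 0.1 is the smallest that 3 against 3 allows). Nlgn3 held the remainder, 13.1% ± 3.51 in siNC and 8.89% ± 0.234 in siQk (SD, n = 3 each).

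**Figure D3:**
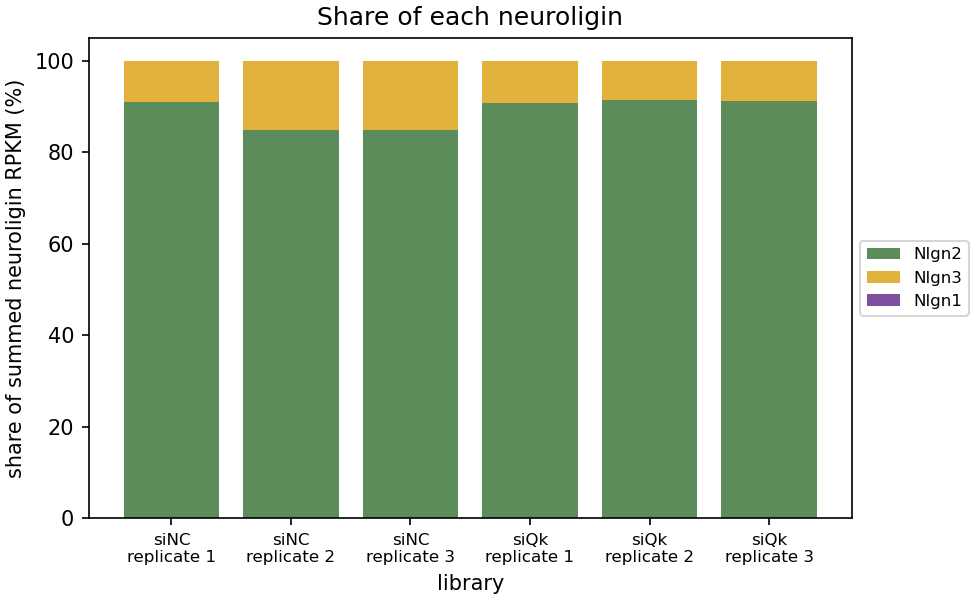
Share of each neuroligin gene in the summed RPKM of Nlgn1, Nlgn2 and Nlgn3, in percent, per library. Nlgn2 holds 84.8% to 91.4% and Nlgn1 at most 0.0523%, too little to see, and siNC replicate 1 has the shares of the siQk libraries.

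Cask (Entrez 12361, GRCm38 chrX:13517080-13851367, minus strand), which ties neurexin tails to the presynaptic scaffold, had the smallest fitted change. It had 6.06, 7.27 and 9.81 RPKM in siNC and 7.37, 8.60 and 7.95 RPKM in siQk, from 2645 to 3950 counts. All 3 siQk libraries lay inside the siNC range, whose top was siNC replicate 3. The means were 7.71 ± 1.91 and 7.98 ± 0.616 RPKM (SD, n = 3 each), with a log2 fold change of 0.02 (SE 0.23, 95% interval -0.45 to 0.48; adjusted p = 0.9996, edgeR). It was 0.26 without siNC replicate 3, where the 3 siQk libraries lay above the 2 siNC libraries left (22.9% of all genes tested did not overlap in that setting), -0.14 without siNC replicate 1, and 0.21 without both siNC replicate 3 and siQk replicate 2. The ratio of Nrxn2 to Cask RPKM was 1.57 ± 0.810 in siNC and 1.46 ± 0.376 in siQk (SD, n = 3 each, two-sided exact permutation p = 1). The ratio of Nrxn2 to Nlgn2 was 2.40 ± 0.369 and 2.15 ± 0.347 (SD, n = 3 each, two-sided exact permutation p = 0.5).

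Agrn (Entrez 11603, GRCm38 chr4:156165290-156197488, minus strand), the nerve-derived organiser, varied most among the siNC libraries. It had 28.8, 20.7 and 9.93 RPKM in siNC and 23.1, 18.4 and 21.2 RPKM in siQk, from 3470 to 11921 counts. siNC replicates 1 and 3 were the highest and the lowest of the 6 libraries, and 3 of 3 siQk libraries lay between them. The spread in siNC was 0.75 on the log2 scale (SD), larger than in 96.1% of genes tested, beside 0.17 in siQk. Means were 19.8 ± 9.47 and 20.9 ± 2.38 RPKM (SD, n = 3 each), with a log2 fold change of 0.06 (SE 0.44, 95% interval -0.62 to 0.75; adjusted p = 0.9996, edgeR). The fold change was -0.25 without siNC replicate 3, -0.02 without siQk replicate 1, 0.43 without siNC replicate 1, and -0.16 without both siNC replicate 3 and siQk replicate 2.

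Lrp4 (Entrez 228357, GRCm38 chr2:91457511-91513779, plus strand), the agrin receptor that muscle carries, was low in these neuron-like cells and had the fitted change farthest from 0. It had 0.306, 0.372 and 0.344 RPKM in siNC and 0.370, 0.637 and 0.440 RPKM in siQk, from 157 to 362 counts. siQk replicates 2 and 3 lay above all siNC libraries, and siQk replicate 1 lay just under siNC replicate 2. On TMM-scaled values the 3 siQk libraries were higher than the 3 siNC libraries, and 8.51% of genes tested did not overlap on that scale. The means were 0.341 ± 0.0336 and 0.482 ± 0.139 RPKM (SD, n = 3 each), with a log2 fold change of 0.48 (SE 0.24, 95% interval -0.17 to 1.12; unadjusted p = 0.129 and adjusted p = 0.9996, edgeR). Without siQk replicate 2, the highest library, the fold change was 0.23, and leaving out siNC replicate 3 too gave 0.27.

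Dag1 (Entrez 13138, GRCm38 chr9:108204634-108263958, minus strand), the receptor for agrin and laminin, was the most abundant member in siNC. It had 18.6, 20.8 and 21.5 RPKM in siNC and 16.6, 26.0 and 21.03 RPKM in siQk, from 3398 to 6279 counts. The siQk libraries held both the lowest and the highest value, so the siNC range lay inside theirs. Means were 20.3 ± 1.51 and 21.2 ± 4.74 RPKM (SD, n = 3 each), with a log2 fold change of 0.04 (SE 0.20, 95% interval -0.39 to 0.46; adjusted p = 0.9996, edgeR). It was -0.14 without siQk replicate 2 and -0.06 with siNC replicate 3 left out as well. Agrn stood to Dag1 at 1.001 ± 0.543 in siNC and 1.04 ± 0.346 in siQk (SD, n = 3 each, two-sided exact permutation p = 0.9), and to Lrp4 at 59.5 ± 32.9 and 46.4 ± 16.8 (two-sided exact permutation p = 0.7).

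Across the 6 libraries, Agrn, Nrxn2 and Nlgn2 varied together and Cask varied the opposite way. The Pearson r of TMM-scaled log2 CPM was 0.95 for Agrn with Nlgn2, 0.91 for Agrn with Nrxn2 and 0.84 for Nrxn2 with Nlgn2. Cask had r of -0.95 with Agrn, -0.89 with Nrxn2 and -0.82 with Nlgn2. These are descriptions over 6 points that share library and depth, and many genes followed the same pattern: 162 other genes had r over 0.95 with Agrn, led by Irf3 (0.998) and Dock6 (0.997), and 86 with Cask, led by Mrps9 (0.999) and Ap4e1 (0.996). Agrn, Nrxn2 and Nlgn2 were also alike in base composition. Transcript GC was 62.4% for Nrxn2, 60.7% for Nlgn2 and 57.4% for Agrn, above that of 98.3%, 96.2% and 85.2% of genes tested. It was 46.5% for Cask, above that of 28.6%. Not every member followed this order. Lrp4 (54.7%) and Dag1 (52.8%) lay above 71.2% and 60.8% of genes tested in GC, yet had r of -0.19 and -0.56 with Agrn. Nlgn3 (49.3%) had r of 0.14 with Agrn.

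Libraries differed in how level followed GC over all genes. Taking each gene against its mean over the 6 libraries, the highest of 5 bins of genes by GC had a median deviation of 0.23 (log2) in siNC replicate 1 and -0.28 in siNC replicate 3, and the lowest bin had -0.20 and 0.20. In siNC replicate 3 Nrxn2 deviated by -0.70, Nlgn2 by -0.63, Agrn by -0.90 and Cask by 0.40. With the length and GC trends of each library removed, the siNC spread (SD, log2) went from 0.57 to 0.23 for Nrxn2, from 0.46 to 0.21 for Nlgn2, from 0.39 to 0.33 for Cask and from 0.75 to 0.53 for Agrn. For Lrp4 it went from 0.14 to 0.27. In that fit 0 members were called, and log2 fold changes were 0.19 for Nrxn2, 0.36 for Nlgn2, -0.26 for Nlgn3, 0.13 for Cask, 0.20 for Agrn, 0.66 for Lrp4 and 0.20 for Dag1, beside a median of 0.07 over all genes tested. The part of base composition in the results without that correction was not tested further.

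**Figure D4:**
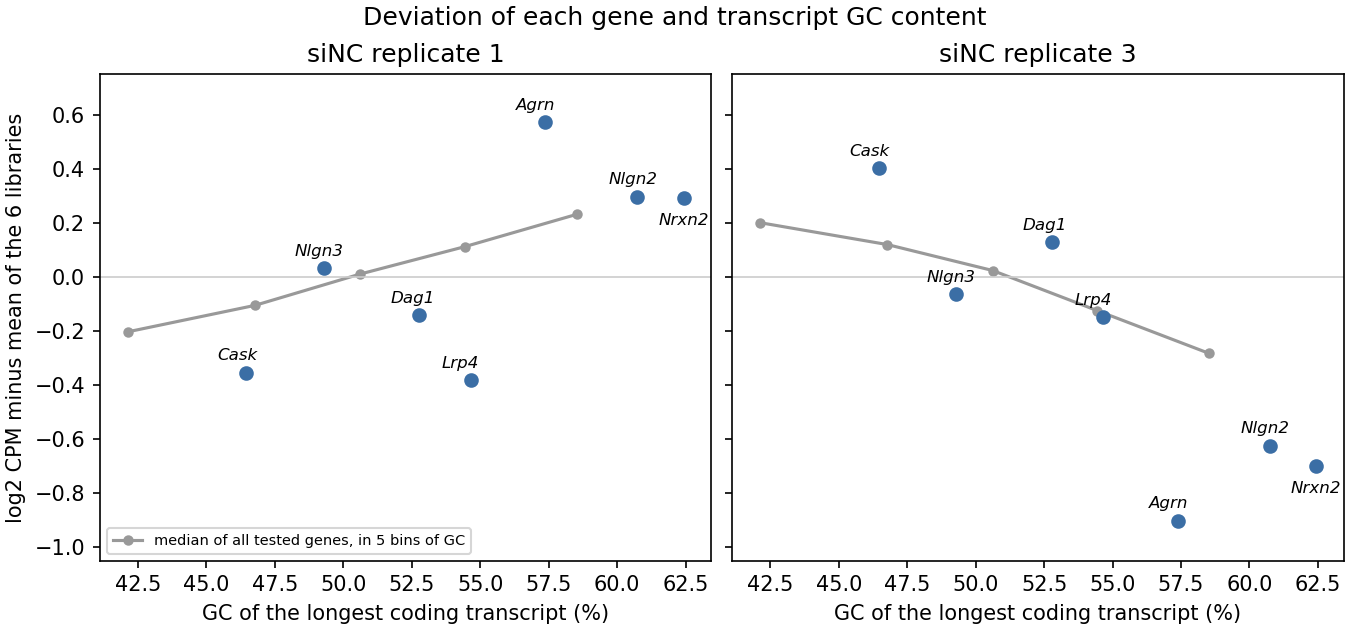
Deviation of each tested member from its mean over the 6 libraries (log2 CPM, y axis) against the GC content of its longest coding transcript (x axis, percent) in siNC replicates 1 and 3, with grey lines for the median of all tested genes in 5 bins of GC. Agrn, Nlgn2 and Nrxn2 lie high in siNC replicate 1 and low in siNC replicate 3, on the side of the grey line, and Cask lies on the opposite side of 0 from them. In siNC replicate 1 Lrp4 (-0.38) and Dag1 (-0.14) lie below 0, where the grey line at their GC is above 0.

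The partners of the 9 genes were read from lists by role. Of 24 other neurexin partners, 9 were tested, 0 were called and 0 had an unadjusted p under 0.05. Of the tested partners, 8 had lower and 1 a higher fitted level in siQk, and the median was -0.18 (log2), or 0.10 without siNC replicate 2. Of the 24, 9 had no count in any library. The abundant partners were Clstn1 (83.1 to 114 RPKM, named after its values were seen), which encodes a calsyntenin, and Adgrl1, a latrophilin receptor, with a log2 fold change of -0.20 (SE 0.23). The other tested partners with the smallest p were the carbonic anhydrase-related Car11 (-0.29, SE 0.23) and C1ql3 (-0.62, SE 0.80), a secreted synaptic organiser. Of 28 genes for other synaptic adhesion, 13 were tested and 0 called, with a median of -0.11, and Cadm1 had 0.23 (SE 0.14), Ntng2 -0.49 (SE 0.50) and Cadm2 -0.61 (SE 0.57). Of 30 Cask partners and postsynaptic scaffolds, 26 were tested and 0 called, with a median of -0.06. Among these, gephyrin (Gphn), the scaffold of inhibitory synapses that binds Nlgn2, had -0.34 (SE 0.18), Magi2 -0.40 (SE 0.21) and Magi1 -0.22 (SE 0.15).

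Of the 20 genes of the agrin receptor pathway, 11 stayed under 1 RPKM in all libraries, 3 of these with no count, and 10 were tested and 0 called, with a median log2 fold change of -0.07. Musk, the kinase, had 0 counts in 6 of 6 libraries, which allows up to 0.0154 to 0.0192 RPKM. Dok7, its activator, had at most 0.201 RPKM, and Rapsn, which anchors acetylcholine receptors, had 0.617 to 1.91 RPKM (these 3 genes were named after their values were seen). Dnaja3, a co-chaperone that binds MuSK, was abundant at 50.1 to 80.7 RPKM and was the 1 gene with an unadjusted p under 0.05 (0.0449), with a log2 fold change of -0.41 (SE 0.18), siQk libraries below siNC libraries and an adjusted p of 0.9996 (edgeR). The receptor Erbb3 had -0.31 (SE 0.12, 95% interval -0.69 to 0.07) and the adaptor Crkl 0.29 (SE 0.17, 95% interval -0.13 to 0.71).

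Around dystroglycan, 7 of 16 genes of its complex were tested and 0 called, with a median of -0.03. Sspn, which encodes sarcospan, had 4.79, 8.35 and 8.17 RPKM in siNC and 5.26, 3.96 and 3.58 RPKM in siQk. siNC replicate 1 lay among the siQk libraries, and the log2 fold change was -0.76 (SE 0.31; unadjusted p = 0.0149, adjusted p = 0.9996, edgeR). Utrophin (Utrn), which links dystroglycan to actin, had 0.27 (SE 0.14) and Sntb2, a syntrophin, -0.32 (SE 0.26). Of the enzymes that build the sugar chains of dystroglycan, 17 of 18 were listed, 16 tested and 0 called, with a median of -0.03. B3galnt2 had 0.37 (SE 0.18, 95% interval -0.11 to 0.85) and B4gat1 -0.32 (SE 0.10, 95% interval -0.77 to 0.13). Of 14 laminins and related ligands, 8 were tested and 0 called, with a median of -0.13, and Lamb3 had -0.84 (SE 0.55), Lama5 -0.44 (SE 0.34) and Nid2 0.51 (SE 0.63).

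**Figure D5:**
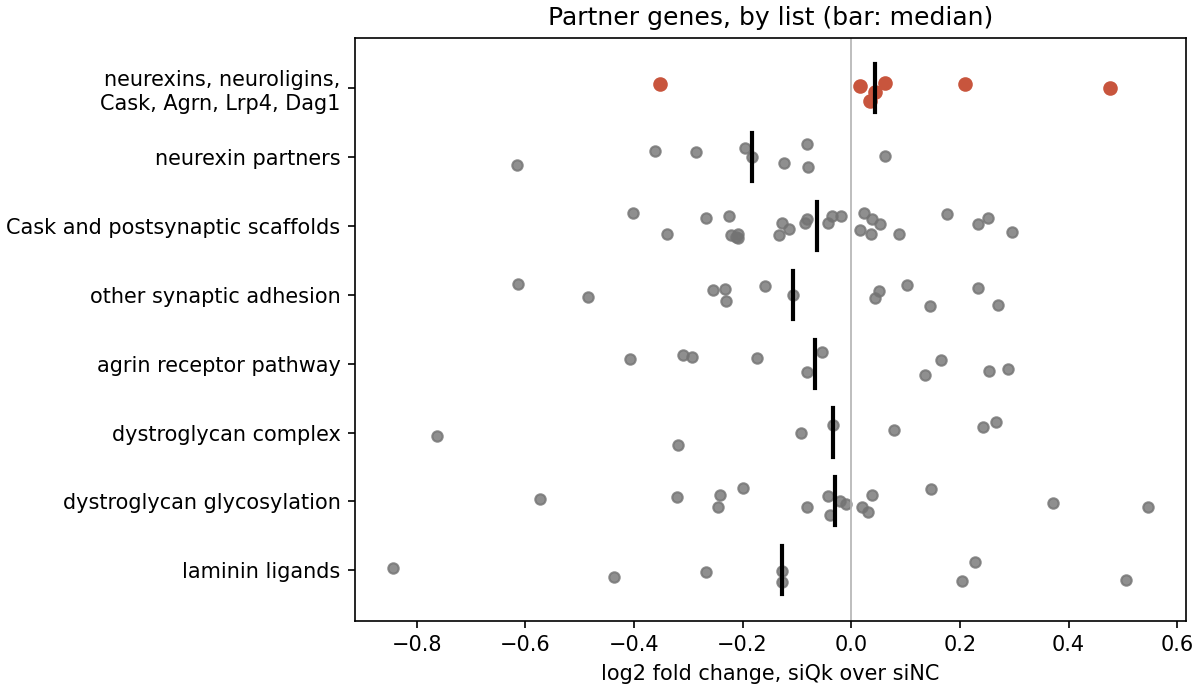
log2 fold change of siQk over siNC for the tested genes of each partner list (grey points) and for the 7 tested members (red points), with bars at the medians. Every list straddles 0, with medians from -0.18 to -0.03 beside 0.04 for the members, and the medians of all lists but the dystroglycan complex change sign with 1 library left out.

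With 1 library left out, the median ran from -0.40 to 0.10 for neurexin partners, -0.31 to 0.09 for other synaptic adhesion, -0.13 to 0.02 for scaffolds, -0.09 to 0.10 for the agrin receptor pathway, -0.16 to 0.01 for dystroglycan glycosylation and -0.28 to 0.07 for laminin ligands. It stayed at -0.09 to -0.001 for the dystroglycan complex, which had -0.31 with no filter on low genes. With no filter the median was 0.05 for other synaptic adhesion, -0.27 for laminin ligands and -0.18 for the agrin receptor pathway. It was -0.13 for neurexin partners, -0.09 for scaffolds and -0.03 for dystroglycan glycosylation.

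Marker lists were counted for the cell types the cultures could hold. Of 16 motor neuron and neuron markers, 10 were tested and 0 called, with summed levels of 809 to 1445 RPKM in siNC and 806 to 1211 RPKM in siQk. Isl1, a motor neuron transcription factor, had a log2 fold change of 0.82 (SE 0.10, 95% interval 0.42 to 1.21, unadjusted p = 0.00101 and adjusted p = 0.9996, edgeR). Map2 had -0.41 (SE 0.30) and Snap25 0.25 (SE 0.14). Of 8 skeletal muscle markers, 2 were tested, with summed levels of 28.1 to 38.9 RPKM in siNC and 30.0 to 33.8 RPKM in siQk, and Des had -0.53 (SE 0.57) and Myh3 -0.12 (SE 0.14). Of 13 markers of glia, microglia and fibroblasts, 3 were tested, with summed levels of 7.02 to 8.94 RPKM in siNC and 6.13 to 8.74 RPKM in siQk, and Mbp had -0.14 (SE 0.29) and Pdgfra 0.09 (SE 0.33). Gfap and Col1a1, which define astrocytes and fibroblasts, stayed at or below 0.101 and 0.121 RPKM.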

How the data were processed

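mRNA of 3 siNC and 3 siQk libraries was analysed. The authors selected poly-A RNA, made TruSeq version 2 libraries, which keep no strand, aligned 75-base read pairs with OLego and quantified genes with Quantas. Labels give build mm10, while the methods name a second, different NCBI build beside it. The deposited files hold expected counts per gene, with 21.9% to 22.9% not whole, and the RPKM values the authors made from counts, exon length and the library total.

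Counts were rounded, scaled by TMM (factors 0.957 to 1.02) and filtered at a mean log2 CPM above 0. The quasi-likelihood test of edgeR 4.0.16 (R 4.3.3) was fitted over all 12665 genes kept. The cutoffs for a call were 0.01 for p and 0.1 for p after Benjamini-Hochberg adjustment. SEs come from the spread of log2 CPM (prior count 2) within each group of 3. The 95% intervals come from the quasi-likelihood fit and can be wider than the SE implies. Library totals of 43000503 to 53565950 counts make counting error small for all but the lowest genes, the 95% intervals include the spread between libraries, and floors of 3 counts cover counting error only. Single values were compared by two-sided exact permutation over the 20 arrangements, on log2(RPKM + 0.01) for levels. Positions are from GENCODE M21 (GRCm38), matched by symbol. GC used the longest coding transcript (12076 genes, 95.3%), and trends were removed by loess (span 0.5). DESeq2 1.42.0, limma voom (3.58.1), the exact test, other scalings and filters, a replicate block and leaving out libraries were alternatives. Scripts were tested on simulated data.

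Named genes are the members, Qk, the 3 tested genes with the smallest p of each list, and the 2 genes most like Agrn and Cask. Any other gene is said to be named after its values were seen, or is given as a defining marker. The members and lists were chosen with earlier results of these data known. List genes were matched by symbol or older symbol (the files list Adgrl1, B4gat1 and Map2 as Lphn1, B3gnt1 and Mtap2). Some genes and sequences that this rule names are not reported here.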

Additional observations from a re-analysis of the deposited data

How the results depend on the processing

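No member was called under any of the 16 alternatives, and none had an unadjusted p under 0.05. The genes called over the whole table numbered 5 with the edgeR exact test, 19 with DESeq2, 2 with voom and 0 to 1 with 1 library left out. The Qk log2 fold change ran from -3.19 to -2.67 with 1 library left out, and without siNC replicate 1 it was -3.09 with an adjusted p of 0.125. The median of the members was 0.20 with length and GC trends removed, an alternative chosen after seeing the data, and -0.001 to 0.20 with 1 library left out. Of 112 member values recomputed, 15 changed sign. Dag1 went to -0.072 with voom. With siNC replicate 3 and siQk replicate 2 left out together, Nrxn2 was -0.056, Agrn -0.157 and Dag1 -0.061. With 1 library left out the log2 fold changes ran from -0.25 to 0.43 for Agrn, -0.14 to 0.26 for Cask, -0.138 to 0.184 for Dag1, -0.001 to 0.44 for Nlgn2, -0.46 to -0.16 for Nlgn3, 0.23 to 0.63 for Lrp4 and -0.22 to 0.20 for Nrxn2. The cause was not tested. Groups of 1 member (Lrp4) did not overlap on TMM-scaled RPKM (8.51% of all genes tested), and those of 1 to 3 of the 9 members with 1 library left out (14.3% to 22.9%). These percentages cover tested genes only. The members counted include the untested Nrxn3 (0 to 6 counts) without siNC replicate 1, and Nrxn3 alone without siQk replicate 2. The share of Nlgn2 stayed higher in siQk in the 7 alternatives run on it (shares of counts and 6 with 1 library left out). No partner list had a called gene under any alternative run on it. Same-numbered siNC and siQk libraries did not deviate together (r 0.21, 0.02 and -0.17), so numbers were not treated as pairs; with a replicate block the median of the members was 0.09, 1 gene and 0 members were called, and Qk had -2.96 (adjusted p = 0.0112, edgeR). Nrxn3 and Nlgn1 rest on 14 counts and 1 count in all, so no difference was detectable for them at this depth, and Nlgn3 (90 to 159 counts a library) and Lrp4 (157 to 362) are the lowest of the 7 tested.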
